A study of Mus musculus with 18 samples.

Results

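Lung fibroblasts were compared with heart fibroblasts across all expressed genes of mouse cells in culture. The comparison used 6 of the 18 libraries of the series: 3 of lung control fibroblasts and 3 of heart control fibroblasts, all at day 7 and all in the endothelial growth medium EGM2. The remaining 12 libraries are native endothelial cells (ECs) and iECs of the same organs, 3 of each. They were used to set the spread between replicates and to ask whether an organ difference was also seen in those cultures. The iEC libraries are titled SEG, and the labels give iEC as their cell type. Neither name is written out in the labels. The series asked how far cells take on the endothelial identity of an organ, for which the fibroblasts are the controls. The labels give no strain, age, sex, genotype, passage or sorting of the fibroblasts, and what "control" stands for is not explained. Nor do they say whether the 3 replicates of a group came from separate animals or cultures, so the p-values below rest on a spread between libraries that may be technical only.

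Fibroblasts make and remodel the extracellular matrix of an organ and supply its epithelium, vessels and immune cells with growth factors. Those of different organs keep part of the transcription factor pattern of the mesoderm they came from: heart mesenchyme is known for Tbx20, Gata4, Hand2 and Tcf21, and lung mesenchyme for Tbx4, Foxf1 and the Hox genes of the anterior trunk. In the adult lung, fibroblast subsets are known for support of alveolar epithelium, for the tissue around vessels and airways, and for contractile myofibroblasts. In the heart they are known for the interstitial matrix between cardiomyocytes.

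The 6 libraries held 17747632 to 22603749 estimated counts and 15928 to 16650 genes with a count. Levels are given as CPM, the count divided by a library size scaled by TMM, and are compared between libraries, not between genes, since CPM takes no account of transcript length. Per group, the limit set by 3 counts in all, which covers counting error only, was 0.0549 CPM in heart and 0.0496 CPM in lung fibroblasts. Pearson's r of log2 CPM was at least 0.9863 between heart fibroblasts, at least 0.9775 between lung fibroblasts, where replicate 1 stood slightly apart, and 0.9145 to 0.9299 between the organs. Mitochondrial transcripts took 1.81% to 2.17% of the counts. The Y-linked gene Uty was present in all 6 libraries, at 19.6 to 29.2 CPM.

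The core fibroblast genes were expressed in every library. Their summed level was 6.51% to 6.73% of the counts in heart and 7.19% to 8.69% in lung fibroblasts. Pdgfra, the receptor used to mark fibroblasts of both organs, was at 1005, 975 and 1002 CPM in the heart and at 667, 1025 and 923 CPM in the lung libraries, which overlapped, and did not differ by the test (adjusted p = 0.277). Transcripts of other cell types differed between the groups, and fewer cells of a type cannot be told apart from less RNA per cell in bulk RNA. Endothelial markers summed to 0.0834% to 0.0862% of the counts in heart fibroblasts and 0.0195% to 0.0212% in lung fibroblasts, against 0.349% to 0.54% over the ECs of both organs. All 26 of them had counts in both groups. Macrophage and leukocyte markers summed to 0.026% to 0.029% in heart and 0.137% to 0.172% in lung fibroblasts, against 1.11% to 1.25% in lung ECs, with 4 of 26 members without a count in heart and 3 in lung fibroblasts. Smooth muscle markers summed to 0.0231% to 0.0261% in heart and 0.0907% to 0.126% in lung, and mesothelial and epicardial markers to 0.0462% to 0.048% and 0.0548% to 0.0615%. Epithelial markers were near 0 in both, at 0.000249% to 0.000343% in heart, where 10 of 22 had no count, and 0.000766% to 0.00117% in lung, where 3 had none. Cardiomyocyte markers took 0.00797% to 0.00884% in heart and 0.000434% to 0.000648% in lung, with 4 and 8 of 20 members without a count. The heart sum includes Tnnt2, which is given below beside other heart muscle genes near 0 in the same libraries. These sums are shown by library in the plot of marker lists.

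Of 14864 genes tested, 7204 (48.5%) differed at an adjusted p under 0.05 (edgeR, quasi-likelihood), 3658 (24.6%) higher in lung fibroblasts and 3546 (23.9%) lower. The median difference was 0.01 over all genes on the log2 scale, and the median size among the called genes was 0.71. Differences past 2-fold, tested against that threshold, were found in 994 genes (6.69%) higher and 672 (4.52%) lower in lung. The 3 lung libraries all lay above the 3 heart libraries for 4137 genes (27.8%) and all below them for 4132 (27.8%). Calls were thus common in both directions, and each gene group below is read against these shares.

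**Figure D1:**
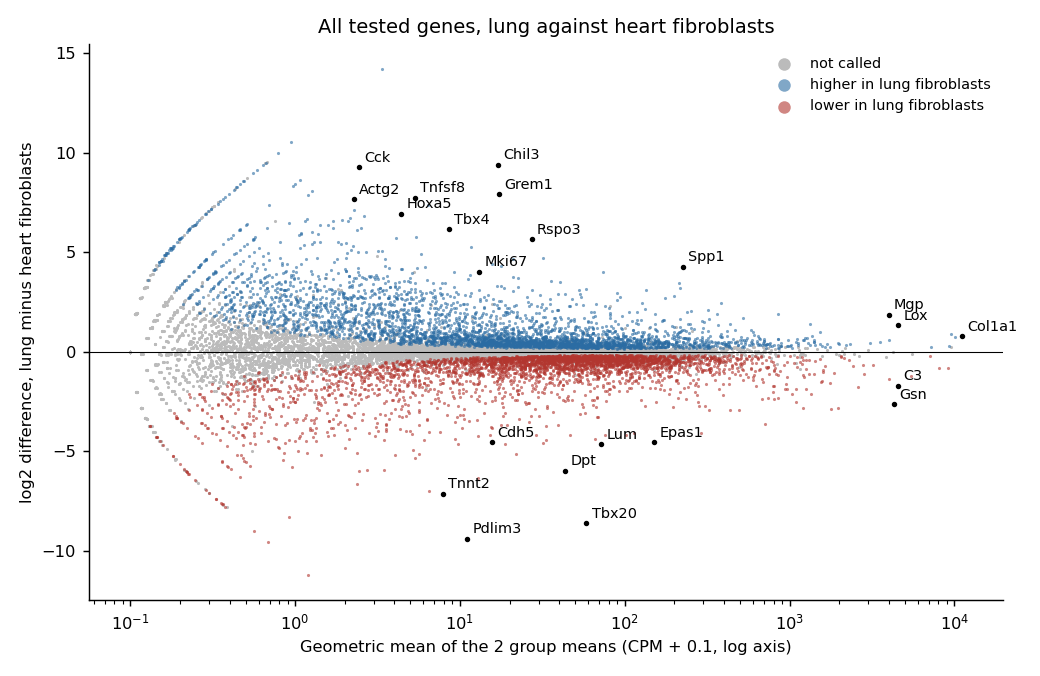
Log2 difference between lung and heart fibroblasts (lung minus heart) against mean level (geometric mean of the group means, CPM + 0.1, log axis) for the 14864 tested genes; blue genes were called higher in lung, red lower, grey not called. Tbx20 and Pdlim3 lie at the bottom with log2 differences of -8.63 and -9.41, and Chil3 at the top with 9.41.

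Factors known to set organ identity differed strongly. Tbx20, a T-box factor of heart development (ENSMUSG00000031965, GRCm38 chr9:24718138-24774303, minus strand), was at 1215, 1159 and 1056 CPM in the 3 heart libraries and at 2.63, 3.26 and 2.75 CPM in the 3 lung libraries. Every heart library lay far above every lung library, a log2 difference of -8.63 ± 0.162 (SE; adjusted p = 6.78e-17). Tbx4, a T-box factor of lung and limb mesenchyme (ENSMUSG00000000094, chr11:85886422-85916097, plus strand), showed the reverse, with 1.46, 0.737 and 0.666 CPM in heart and 64.1, 71.5 and 71.5 CPM in lung libraries. The groups did not overlap, and the log2 difference was 6.15 ± 0.201 (adjusted p = 5.87e-14). Of 11 T-box genes tested, 5 were higher in lung and 2 lower. Tbx3 averaged 1.22 CPM in heart and 22.7 CPM in lung fibroblasts, Tbx2 9.41 and 47 CPM, and Tbx5 2.67 and 20.8 CPM, with no overlap between libraries. Tbx5 is known from the heart as well as the lung, and in these cultures it was higher in lung (log2 difference 2.96). Tbx18, a factor of the epicardium and its descendants, was lower in lung, at 36.7 CPM in heart and 17.3 CPM in lung.

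The factors known from heart mesenchyme differed in both directions: of 16 tested, 7 were lower in lung and 5 higher (3 with a minimum of 5 CPM in 3 libraries), with a median log2 difference of -0.49. Gata4 was at 118, 122 and 122 CPM in heart and 7.56, 9.87 and 9.89 CPM in lung libraries (log2 difference -3.72 ± 0.163, adjusted p = 6.51e-12). Hand2 was at 57, 59 and 60 CPM in heart and 4.18, 4.17 and 3.93 CPM in lung libraries (-3.84 ± 0.103, adjusted p = 3.35e-15). For both, all heart libraries were high and all lung libraries low. Gata6, a relative of Gata4 used in heart and lung development, was at 67 to 74.3 CPM in heart and 66.3 to 77.9 CPM in lung libraries, which overlapped (adjusted p = 0.864). Wt1, a factor of epicardium and mesothelium, averaged 1.76 CPM in heart and 21.5 CPM in lung, the opposite direction to Tbx18. Both are on the list of mesothelial and epicardial markers, of which 14 of 18 were higher in lung and 3 lower, with a median log2 difference of 1.97 (-1.39 in ECs). Msln, mesothelin, averaged 24.6 CPM in heart and 125 CPM in lung, and Upk3b, a uroplakin of mesothelium, 9.5 and 37.5 CPM, and neither overlapped between groups. The summed level of the list, given above, includes Tcf21, which was lower in lung. The part of mesothelial cells in the difference of Wt1 was not tested.

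Tcf21, which marks fibroblasts of both organs, was at 324, 313 and 327 CPM in heart and 17.4, 19.8 and 15.8 CPM in lung libraries. It was thus present in all 6 libraries but lower in every lung library, with a log2 difference of -4.19 ± 0.147 (adjusted p = 2.72e-13). Of 17 factors listed for lung mesenchyme, 10 were higher in lung and 6 lower, Tcf21 among the latter, with a median log2 difference of 2.28. The count of lower genes was 3 without heart replicate 2. Foxf1, a forkhead factor required for lung mesenchyme, averaged 7.36 CPM in heart and 37.7 CPM in lung (log2 difference 2.36 ± 0.155, adjusted p = 6.64e-10). Osr1, an early factor of the mesoderm that forms lung and other viscera, averaged 21.1 and 103 CPM (2.28 ± 0.22, adjusted p = 4.86e-07). Foxc1, a forkhead factor of mesenchyme and vessels, was lower in lung at 20 and 11.8 CPM.

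Hox genes, which are laid out in clusters and record position along the body axis, were higher in lung for 18 of the 23 tested and lower for 3, with a median log2 difference of 5.29, or 4.03 with genes without a heart count set to their lower bound. With the minimum of 5 CPM, 11 were called higher. Hoxa5, known for its role in lung growth, was at 0.418, 0.369 and 0.242 CPM in heart and 43.1, 43.2 and 43.9 CPM in lung libraries (6.94 ± 0.278, adjusted p = 1.22e-12). Hoxb6 was at 0.365, 0 and 0 CPM in heart and 14.9, 11.7 and 12 CPM in lung libraries. Hoxb7 had no count in any heart library and 9.79, 8.1 and 8.35 CPM in lung libraries, so it was at least 158-fold higher. These 3 genes were near or at 0 in all heart libraries and expressed in all lung libraries. The genes nearer the start of cluster B were low but present in heart: Hoxb4 averaged 3.8 CPM in heart and 21 CPM in lung, and Hoxb2 2.96 and 16.4 CPM.

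The 3 Hox genes that were lower in lung all belong to cluster D. Hoxd8 averaged 4.27 CPM in heart and 1.12 CPM in lung, Hoxd9 1.55 and 0.199 CPM, and Hoxd10 was at 0.209 to 0.484 CPM in heart and 0 to 0.0479 CPM in lung libraries, with 1 count in lung in all. Hoxd8 was called in the fit to all libraries and in that to the fibroblasts alone (log2 difference -1.94 ± 0.233, adjusted p = 1.6e-06). The remaining 16 listed Hox genes, 39 in all, were below the filter on low counts. Neighbouring and antisense transcripts overlap in Hox clusters and the strand setting of the counting is not given in the sources used here, so reads of such neighbours cannot be told apart.

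**Figure D2:**
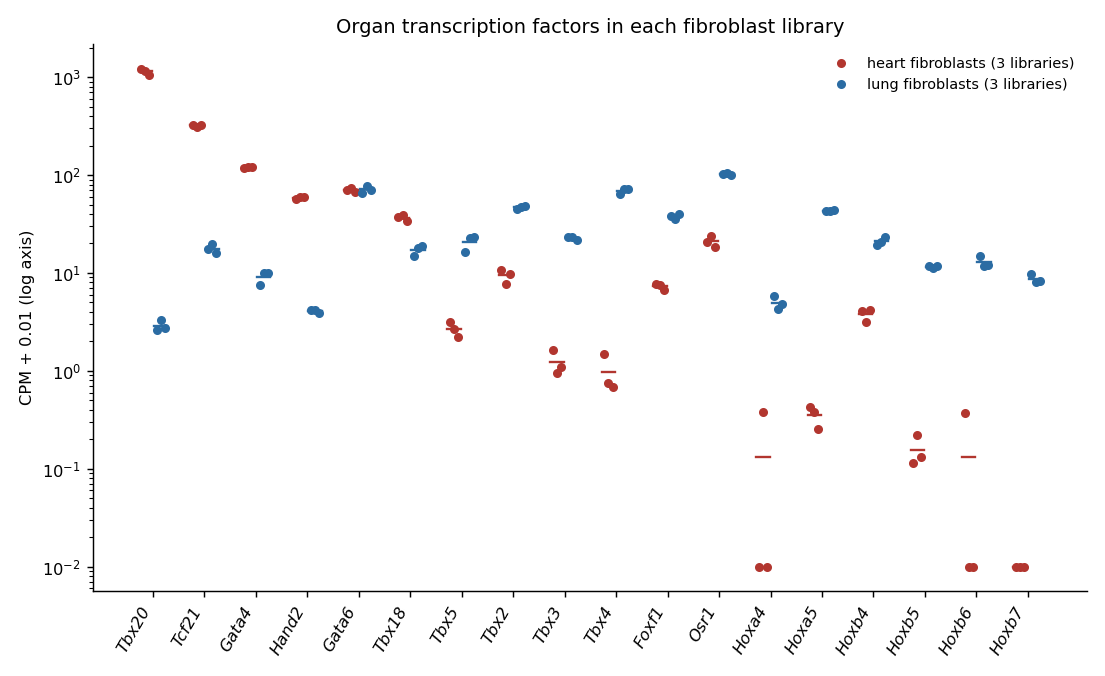
CPM + 0.01 (log axis) of 18 transcription factors in each of the 3 heart (red) and 3 lung (blue) fibroblast libraries; points are libraries, lines group means. Tbx20, Tcf21, Gata4 and Hand2 are higher in all heart libraries, Gata6 overlaps between groups, and Tbx4 and the Hox genes drawn are higher in all lung libraries.

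Among 25 further transcription factors of mesenchyme, 8 were higher and 12 lower in lung. Sox9, known from cartilage and from activated heart fibroblasts, was at 137, 143 and 158 CPM in heart and 21, 21.8 and 20.7 CPM in lung libraries. Every heart library was higher, with a log2 difference of -2.79 ± 0.156 (adjusted p = 1.37e-10). Ebf2 averaged 25.1 CPM in heart and 3.7 CPM in lung, and Foxp2 48.8 and 11.4 CPM. Prrx2, a homeobox factor of embryonic mesenchyme, was at 0.484 to 1.1 CPM in heart and 10.3 to 11 CPM in lung libraries, which did not overlap.

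Genes that define fibroblasts differed in level rather than in presence. Of 26 core fibroblast genes, 8 were higher in lung and 11 lower, with a median log2 difference of -0.18. The chains of type I collagen were higher in lung: Col1a1 was at 8002, 8932 and 8617 CPM in heart and 12813, 15361 and 15320 CPM in lung libraries (0.77 ± 0.113, adjusted p = 1.83e-05), and Col1a2 differed by 0.74. Col3a1 was at 8670 to 9103 CPM in heart and 9004 to 11512 CPM in lung libraries, which overlapped (adjusted p = 0.322). Fn1, fibronectin, averaged 7060 CPM in heart and 12943 CPM in lung, and Lox, the enzyme that crosslinks collagen and elastin, 2870 and 7261 CPM. Both were higher in every lung library. Gsn, the actin-severing protein gelsolin, was lower in every lung library, at 10948, 10016 and 11149 CPM in heart and 1751, 1732 and 1704 CPM in lung (-2.63 ± 0.175, adjusted p = 2.26e-09).

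Small leucine-rich proteoglycans, which bind collagen fibrils and set their width, were lower in lung for 9 of 11 tested genes and higher for 2, with a median log2 difference of -2.14. Lum, lumican, was at 398, 323 and 350 CPM in heart and 12.2, 17.2 and 13.4 CPM in lung libraries (-4.64 ± 0.306, adjusted p = 1.77e-08). Dcn, decorin, averaged 2178 and 493 CPM, Prelp 1838 and 350 CPM, and Aspn, asporin, 63.5 and 4.82 CPM. Dpt, dermatopontin, a partner of decorin outside this family, was at 354, 314 and 356 CPM in heart and 5.56, 6.04 and 4.65 CPM in lung libraries (-5.98 ± 0.12, adjusted p = 1.14e-16). All of these were higher in each heart library than in any lung library. Podn, podocan, and Tsku, tsukushi, were the members higher in lung, at 19.7 and 145 CPM for Podn and 35.5 and 99.6 CPM for Tsku.

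The basement membrane was also lower in lung for more genes than it was higher: 11 of 21 lower and 5 higher, median log2 difference -0.78. The paired type IV collagen chains were lower together, Col4a1 at 8255 CPM in heart and 3565 CPM in lung (-1.21 ± 0.0912, adjusted p = 4.07e-09) and Col4a2 at 6473 and 2462 CPM (-1.39 ± 0.0877, adjusted p = 3.53e-10). Lama2, the laminin chain of muscle and mesenchyme, averaged 863 and 318 CPM. Nid2, a nidogen that links laminin to collagen, was the reverse, at 119 and 472 CPM. Npnt, the integrin ligand nephronectin, was at 4.33, 7.37 and 4.96 CPM in heart and 48.6, 58.7 and 58.4 CPM in lung libraries. Its receptor subunit Itga8 averaged 18.7 CPM in heart and 80.3 CPM in lung, so ligand and receptor were both higher in each lung library. Over all 33 collagen chains tested, 7 were higher and 13 lower, among them Col12a1 (156 and 659 CPM) higher and Col8a1 (1137 and 342 CPM) lower.

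Matricellular genes, whose products signal to cells from within the matrix, were higher in lung for 11 of 20 and lower for 6, with a median log2 difference of 0.45. Spp1, osteopontin (ENSMUSG00000029304, chr5:104435118-104441050, plus strand), was at 47.6, 54.2 and 51.3 CPM in heart and 1148, 885 and 938 CPM in lung libraries (4.28 ± 0.242, adjusted p = 1.23e-09). Tnc, tenascin-C, a glycoprotein of development and wound repair, was at 66.3, 66.5 and 60.1 CPM in heart and 608, 756 and 739 CPM in lung libraries (3.45 ± 0.19, adjusted p = 2.99e-10). Both were more than the spread between libraries apart, with no overlap. How much of the Spp1 difference came from macrophages, whose summed marker levels are given above, was not tested. Mgp, the calcification inhibitor matrix Gla protein, averaged 2091 and 7612 CPM, and Ccn4 12 and 137 CPM. Periostin, thrombospondin-2 and Ccn5 lay on the heart side: Postn was at 1537, 1577 and 1504 CPM in heart and 284, 307 and 299 CPM in lung libraries (-2.37 ± 0.0856, adjusted p = 2.54e-13), Thbs2 averaged 1680 and 330 CPM, and Ccn5 1205 and 157 CPM. Members of this family thus differed in opposite directions, as did the CCN genes Ccn4 and Ccn5.

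Elastic fibre and crosslinking genes were higher for 9 of 22 and lower for 5. Genes of the family named for latent TGF-beta binding proteins were not alike: Ltbp1 averaged 75.3 CPM in heart and 523 CPM in lung, Ltbp2 70.7 and 656 CPM, and Ltbp4 261 and 92.4 CPM. The microfibril genes Mfap5 (59.2 and 236 CPM) and Mfap4 (387 and 87.8 CPM) were also opposite. Eln, elastin, was at 152 to 170 CPM in heart and 150 to 218 CPM in lung libraries, which overlapped (adjusted p = 0.788). Of 32 matrix proteases and inhibitors, 8 were higher and 13 lower. Mmp2 and Mmp3 averaged 2819 and 2078 CPM in heart and 648 and 571 CPM in lung. Mmp13, a collagenase, was at 0.157, 0.316 and 0 CPM in heart and 18.1, 17.9 and 17.3 CPM in lung libraries (6.70 ± 1.31, adjusted p = 0.000891). Timp1, an inhibitor of these enzymes, averaged 188 and 700 CPM. Among 19 integrins that bind matrix, 8 were higher and 9 lower, with Itga2, a collagen receptor subunit, at 5.62 and 76.5 CPM and Itgb5, a vitronectin receptor subunit, at 1685 and 542 CPM.

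Lists for fibroblast subsets of the lung were not higher in lung fibroblasts throughout. Of 13 genes known from alveolar fibroblasts, 7 were higher and 4 lower, with a median log2 difference of 0.80. Past 2-fold, 6 were higher and 4 lower. Limch1 averaged 19.5 CPM in heart and 172 CPM in lung, while Spon1, spondin, was at 1276, 1122 and 1241 CPM in heart and 50.2, 95.5 and 64.8 CPM in lung libraries (-4.11 ± 0.248, adjusted p = 3.34e-09). Scn7a, a sodium channel also on that list, averaged 341 and 51.6 CPM. Of 18 genes known from adventitial fibroblasts, 9 were higher and 5 lower, the latter 3 without lung replicate 2. Their median log2 difference was 0.28, and past 2-fold 4 were higher and 0 lower. Lipid-storing fibroblasts are known from the lung, yet of 14 genes of lipid storage 7 were lower in lung and 2 higher. Lpl, lipoprotein lipase, was at 1419, 1286 and 1404 CPM in heart and 177, 195 and 168 CPM in lung libraries (-2.92 ± 0.248, adjusted p = 1.55e-07).

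Contractile genes were higher in lung for 15 of 19 and lower for 2, with a median log2 difference of 1.52. Tagln, an actin-binding protein of smooth muscle and myofibroblasts, was at 45.3, 46.6 and 47.2 CPM in heart and 488, 329 and 358 CPM in lung libraries (3.08 ± 0.149, adjusted p = 1.69e-11). Acta2, the myofibroblast actin, averaged 174 and 497 CPM (1.52 ± 0.182, adjusted p = 3.59e-06). Both were higher in every lung library, with replicate 1 the highest. Genes typical of mature smooth muscle were low in all heart libraries: Myh11, its myosin, was at 2.51, 2.47 and 1.69 CPM in heart and 36, 37.4 and 34.6 CPM in lung libraries, Cnn1, calponin, averaged 0.231 and 17 CPM, and Des, desmin, 1.83 and 71.2 CPM. Actg2, the enteric actin, was at 0.0526 to 0.182 CPM in heart and 19.5 to 29 CPM in lung libraries, and its reads can be shared with the near-identical Acta2. The lower members were Synpo2, at 43.6 CPM in heart and 7.38 CPM in lung, and Itga7, an integrin of muscle, at 16.7 and 9.17 CPM. Smooth muscle markers, which share members with this list, were higher for 7 of 9 and lower for 1, with the summed levels given above, and how much of the contractile difference came from smooth muscle cells was not tested.

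Genes of soluble guanylate cyclase, the nitric oxide receptor of pericytes and smooth muscle, went the other way. Gucy1a1 was at 138, 111 and 119 CPM in heart and 5.27, 7.71 and 7.18 CPM in lung libraries (-4.18 ± 0.239, adjusted p = 7.93e-10), and Gucy1b1 averaged 68.9 and 5.36 CPM. Both subunits were lower in every lung library. They belong to a list of pericyte genes, of which 6 of 14 were lower in lung and 3 higher, with a median log2 difference of -0.51. Rgs5, a pericyte marker, averaged 2.82 CPM in heart and 0.724 CPM in lung, whereas Cspg4, a proteoglycan of pericytes, averaged 1.55 and 8.29 CPM. The list took 0.173% to 0.179% of the counts in heart and 0.0469% to 0.0481% in lung fibroblasts, a sum that includes Postn, and the part of pericytes in these differences was not tested. Pdlim3, a muscle LIM protein, was at 274, 237 and 275 CPM in heart and 0.0573, 0.862 and 0.181 CPM in lung libraries (-9.41 ± 0.365, adjusted p = 2.14e-11). Tnnt2, the cardiac troponin T, was at 93.3, 83.1 and 85.6 CPM in heart and 0.573, 0.527 and 0.722 CPM in lung libraries. Other genes of heart muscle were near 0 in the same heart libraries: the cardiac myosin Myh6 was at 0 to 0.484 CPM, the atrial light chain Myl7 at 0 to 0.545 CPM and the cardiac actin Actc1 at 0 to 0.242 CPM. Of 12 cardiomyocyte markers tested, 3 were lower in lung and 1 higher (5 lower with DESeq2, 6 lower without heart replicate 2, and 0 and 2 higher without lung replicate 1 and without lung replicate 3).

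Genes of cell division differed in 1 direction. All 30 mitosis genes were higher in lung fibroblasts, each past 2-fold, with a median log2 difference of 2.99, and none of their libraries overlapped. Mki67, the proliferation marker (ENSMUSG00000031004, chr7:135689784-135716361, minus strand), was at 2.35, 3.21 and 4.05 CPM in heart and 50.2, 52.2 and 53.3 CPM in lung libraries (4.03 ± 0.177, adjusted p = 5.36e-12). Top2a, the topoisomerase that untangles chromosomes, was at 9.66, 9.48 and 8.47 CPM in heart and 78.7, 80.3 and 81.1 CPM in lung libraries (3.12 ± 0.11, adjusted p = 1.94e-13). Each lung library was far above each heart library for both. Kif11, a motor of the spindle, averaged 1.55 and 17.1 CPM, Birc5, survivin, 0.551 and 8.88 CPM, and the mitotic driver Cdk1 7.35 and 27.6 CPM. The 30 genes together took 0.0068% to 0.00755% of the counts in heart and 0.0563% to 0.0607% in lung fibroblasts.

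Of 26 DNA replication genes, 25 were higher in lung and none was lower, with a median log2 difference of 1.20. Mcm5, a subunit of the replicative helicase, was at 1.67, 2.16 and 1.75 CPM in heart and 13.5, 10.8 and 14 CPM in lung libraries (2.77 ± 0.171, adjusted p = 2.82e-10). Uhrf1, which maintains DNA methylation during replication, averaged 2.76 and 21 CPM. Pcna, the sliding clamp, differed less, at 40.6 and 60.8 CPM (0.58 ± 0.114). Of 18 p53 targets and CDK inhibitors, 9 were lower in lung and 2 higher, the latter 1 without heart replicate 3. Cdkn1c, an inhibitor of cyclin-dependent kinases, was at 58.6, 61.4 and 61 CPM in heart and 18.8, 18 and 15.9 CPM in lung libraries (-1.78 ± 0.307, adjusted p = 0.000241). Cdkn2a, a marker of senescent cells, was at 20 to 23 CPM in heart and 16.6 to 25.3 CPM in lung libraries, which overlapped (adjusted p = 0.571).

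Because the mitosis genes moved together, their promoters were searched for the elements known from cell cycle genes. Windows of 250 bases before the start site came from RefSeq (GRCm38.p6), with 1 entry per gene, and both strands were read. The 4 stretches below were chosen, after their values were seen, from the 7 mitosis genes that hold both the cell cycle homology region (CHR, TTTGAA), the element that binds the repressor and activator complexes of late cell cycle genes, and the CCAAT box (CCAAT), the site of the factor NF-Y. Each shows the last 150 bases before the start site on the gene's own strand, 5′ to 3′, and capitals mark these motifs or their reverse complements.
Mki67: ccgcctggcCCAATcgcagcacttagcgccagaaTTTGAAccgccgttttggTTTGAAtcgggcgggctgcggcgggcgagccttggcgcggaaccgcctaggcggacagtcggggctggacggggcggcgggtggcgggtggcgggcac
Top2a: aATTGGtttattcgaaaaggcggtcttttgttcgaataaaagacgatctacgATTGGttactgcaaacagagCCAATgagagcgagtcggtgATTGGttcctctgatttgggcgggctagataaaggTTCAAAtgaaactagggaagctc
Kif11: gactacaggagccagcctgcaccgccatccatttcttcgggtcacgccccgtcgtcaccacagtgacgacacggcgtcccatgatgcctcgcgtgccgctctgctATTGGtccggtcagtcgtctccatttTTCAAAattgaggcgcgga
Ube2c: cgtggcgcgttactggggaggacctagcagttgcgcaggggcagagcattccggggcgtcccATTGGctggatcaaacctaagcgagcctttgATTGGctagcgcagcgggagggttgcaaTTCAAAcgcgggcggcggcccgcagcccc
The Mki67 stretch is chr7:135716380-135716529 on the minus strand, that of Top2a chr11:99024190-99024339 on the minus strand, that of Kif11 chr19:37376232-37376381 on the plus strand and that of Ube2c chr2:164769779-164769928 on the plus strand. Of 24 mitosis genes with an entry, 20 (83.3%) held a CCAAT box and 7 (29.2%) a CHR, and all of the latter held both. Over 11165 tested genes with an entry the shares were 36.3% for CCAAT and 11.2% for CHR, with 4.29% holding both. Over all 27025 entries they were 34.5%, 16.3% and 5.73%. An E2F site (TTTGGCGC, TTTCGCGC, TTTCCCGC or TTTGCCGC) was held by 6 of 21 DNA replication genes (28.6%) and 1 of 24 mitosis genes (4.17%), against 3.24% of the tested genes and 1.91% of all entries. A match describes the letters in the window and is not shown to be a site in use.

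Among signalling genes, an antagonist of bone morphogenetic proteins (BMPs) was higher in lung. Grem1, gremlin (ENSMUSG00000074934, chr2:113746164-113758646, minus strand), was at 0.261, 1.37 and 1.57 CPM in heart and 231, 280 and 257 CPM in lung libraries (7.93 ± 0.49, adjusted p = 1.52e-08). It was low in all heart libraries and expressed in all lung libraries, with no overlap. The ligands differed in both directions: Bmp6 averaged 166 CPM in heart and 19.8 CPM in lung, Bmp4 21.2 and 5.01 CPM, and Bmp5 0.14 and 6.51 CPM. Smad6 and Id1, targets of BMP signalling, were lower in lung, at 86.8 and 12.9 CPM for Smad6 (-2.75 ± 0.133) and 74.5 and 28.1 CPM for Id1 (-1.41 ± 0.156). Whether their levels were tied to Grem1 or to the endothelial transcripts given above was not tested. Inhbb, the activin B subunit, averaged 368 and 64.5 CPM. Over the 37 genes of the TGF-beta and BMP pathway tested, 8 were higher in lung and 17 lower.

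Wnt pathway genes were split evenly, with 13 of 36 higher in lung and 13 lower. Rspo3, an R-spondin that raises the response to Wnt (ENSMUSG00000019880, chr10:29452416-29535867, minus strand), was at 3.86, 3.69 and 3.75 CPM in heart and 195, 191 and 187 CPM in lung libraries (5.66 ± 0.131, adjusted p = 5.39e-16). Frzb, a secreted Wnt antagonist, was at 463, 489 and 471 CPM in heart and 28.3, 26.7 and 27.8 CPM in lung libraries (-4.10 ± 0.096, adjusted p = 5.39e-16). The agonist was thus high and the antagonist low in every lung library, each with little spread. The antagonists Sfrp1 (903 and 489 CPM) and Sfrp2 (10.6 and 0.629 CPM) were also lower in lung, whereas Dkk2, another antagonist, was higher (0.443 and 7.61 CPM). Among receptors, Fzd1 averaged 95.1 and 246 CPM and the co-receptor Lrp5 289 and 81.3 CPM. Wnt2, a ligand of lung mesenchyme, had 1 count in heart and was at 1.25 to 2.12 CPM in lung libraries.

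Genes of FGF ligands and receptors were higher in lung for 11 of 19 and lower for 5 (7 higher with the minimum of 5 CPM, 3 lower in the fibroblasts alone). Fgf10, which the lung mesenchyme uses to direct branching of the epithelium, was at 0, 0.316 and 0.121 CPM in heart and 19, 23 and 21.6 CPM in lung libraries (7.12 ± 0.418, adjusted p = 1.46e-10). Fgf7, a ligand of epithelial receptors, averaged 35.1 and 116 CPM, and Fgf2 99.7 and 301 CPM. All 3 ligands were higher in each lung library. The feedback inhibitors differed: Spry1 was at 163, 161 and 150 CPM in heart and 18.2, 16.3 and 19.7 CPM in lung libraries (-3.13 ± 0.186, adjusted p = 8.36e-10), while Spry2 averaged 53.2 and 98.8 CPM.

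Of 18 Notch pathway genes, 12 were lower in lung and none was higher, with a median log2 difference of -1.73. Notch3, the receptor of mural cells and a member of the pericyte list above, was at 103, 91.1 and 101 CPM in heart and 11.3, 23.1 and 20 CPM in lung libraries (-2.43 ± 0.22, adjusted p = 2.58e-07). Jag1, a ligand, averaged 97.1 and 20.7 CPM (-2.23 ± 0.132, adjusted p = 2.05e-10), and Hes1, a target gene, 29.9 and 7.68 CPM. Notch2 was at 165 to 174 CPM in heart and 108 to 182 CPM in lung libraries, which overlapped (adjusted p = 0.36). Dll4 and Notch4, known from endothelium, were lower too, at 5.27 and 0.231 CPM for Dll4 and 37.4 and 6.94 CPM for Notch4. Endothelial markers moved the same way, with 23 of 26 lower in lung and 1 higher, and their part in the Notch result was not tested. Cdh5, the cadherin of endothelial junctions, was at 85.9, 67.9 and 72.6 CPM in heart and 2.23, 3.88 and 3.39 CPM in lung libraries, and Pecam1 averaged 47.6 and 1.91 CPM. The VEGF receptor Kdr overlapped between groups at 8.53 to 9.53 CPM in heart and 6.13 to 9.73 CPM in lung, as did Aplnr, the apelin receptor, at 0 to 0.158 CPM and 0 to 0.181 CPM. Flt1, another VEGF receptor, was higher in lung at 41.5 and 62.2 CPM.

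Guidance genes were higher in lung for 15 of 33 and lower for 12. The secreted semaphorins Sema3a and Sema3c were both higher: Sema3c was at 6.63, 5.63 and 6.29 CPM in heart and 146, 168 and 176 CPM in lung libraries (4.72 ± 0.181, adjusted p = 1.53e-12), and Sema3a averaged 3.33 and 71.2 CPM. The receptors Plxna2 (112 and 20.5 CPM) and Unc5b (544 and 103 CPM) were lower. Of 18 retinoic acid genes, 8 were higher (5 with the minimum of 5 CPM) and 5 lower. The enzymes that make retinoic acid were opposite, since Aldh1a2 averaged 21.9 CPM in heart and 73.7 CPM in lung and Aldh1a1 1784 and 487 CPM. Aldh1a2 is also on the list of mesothelial and epicardial markers, and the part of mesothelial cells in its difference was not tested. Of 17 IGF pathway genes, 8 were higher and 6 lower. Pappa, the protease that frees IGF from its binding proteins, was at 39.4, 35.5 and 34.5 CPM in heart and 124, 293 and 254 CPM in lung libraries (2.62 ± 0.239, adjusted p = 3.73e-07). The lowest lung value was that of replicate 1. Igfbp7 averaged 3042 and 1025 CPM and Igf1 itself 58.7 and 32.1 CPM.

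Immune genes differed in both directions. Chil3, a chitinase-like protein of lung macrophages (ENSMUSG00000040809, chr3:106147554-106167564, minus strand), was at 0.731, 0.474 and 0.605 CPM in heart and 446, 377 and 419 CPM in lung libraries (9.41 ± 0.333, adjusted p = 4.79e-12), and its reads can be shared with near-identical paralogs. Of 21 macrophage and leukocyte markers, 19 were higher in lung and none was lower, with a median log2 difference of 2.35. Ptprc, the common leukocyte antigen, was at 1.57, 1.79 and 0.968 CPM in heart and 8.08, 12.5 and 10.1 CPM in lung libraries, and Lyz2, lysozyme, averaged 163 and 904 CPM. Both genes were higher in every lung library than in any heart library. The members that were not called were Cd14, at 5.93 to 8.09 CPM in heart and 7.36 to 11.9 CPM in lung, and Cx3cr1, at 0 to 0.121 CPM and 0.0479 to 0.515 CPM, whose libraries overlapped. The part of macrophages, whose summed marker levels are given above, in these immune results and in those of complement, MHC, chemokine and interferon genes was not tested. Cytokine genes on the lung side included Tnfsf8, at 65.9 to 72.1 CPM in lung and 0.211 to 0.365 CPM in heart libraries, Il1rn, the interleukin-1 receptor antagonist, at 16.7 to 31.9 CPM and 0.182 to 0.211 CPM, and Il33, an alarmin of stromal cells, at 14 to 18.1 CPM and 5.33 to 8.79 CPM. The prostaglandin enzymes Ptgs1 (41.7 and 159 CPM), Ptgs2 (5.79 and 34.9 CPM) and Ptges (13.6 and 71.9 CPM) were all higher in lung. Over 31 interleukins and inflammatory mediators, 11 were higher and 6 lower.

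Complement genes were lower in lung for 8 of 15 and higher for 2 (4 in the fibroblasts alone). C3, the central component, was at 8581, 7645 and 8588 CPM in heart and 2144, 3245 and 2183 CPM in lung libraries (-1.71 ± 0.372, adjusted p = 0.00176). Of 20 MHC genes, 11 were lower and 2 higher, the latter 1 without heart replicate 1. H2-K1 averaged 2605 CPM in heart and 918 CPM in lung, H2-D1 2604 and 952 CPM, and their light chain B2m 4146 and 1934 CPM, and reads of the class I genes can be shared between paralogs. Calls of chemokines and interferon-stimulated genes depended on the fit. Of 21 chemokines, 6 were called higher and 1 lower in the fit to all 18 libraries, and 13 and 2 in the fit to the 6 fibroblast libraries, where 23.9% of genes were called higher and 22.7% lower. DESeq2 on all libraries called 10 chemokines higher. Ccl2, which attracts monocytes, was at 67.6, 66.3 and 64.9 CPM in heart and 236, 132 and 86.4 CPM in lung libraries, which did not overlap (adjusted p = 0.155 and 0.00988 in those fits). Of 28 interferon-stimulated genes, 1 was called lower and none higher in the fit to all libraries, against 16 lower and 1 higher in the fibroblasts alone. Ifit1 was at 668, 703 and 548 CPM in heart and 431, 341 and 361 CPM in lung libraries (adjusted p = 0.251 and 0.000973). Isg15 was at 212 to 226 CPM in heart and 218 to 365 CPM in lung libraries, which overlapped.

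Metabolic genes differed by class. Of 25 genes of glycolysis and hypoxia, 19 were higher in lung and 2 lower, with a median log2 difference of 0.61. The 2 became 1 without any single heart library, or without lung replicate 2 or 3, and with a replicate block. Hk2, which starts glycolysis, was at 35.4, 46.4 and 40.8 CPM in heart and 94.8, 92.1 and 107 CPM in lung libraries (1.26 ± 0.15, adjusted p = 2.24e-06), and Ldha, lactate dehydrogenase, averaged 687 and 1069 CPM. Of 28 genes of sterol and fatty acid synthesis, 20 were lower in lung and 1 was higher, with a median of -0.56. Fasn, fatty acid synthase, averaged 415 and 210 CPM and Hsd17b7, a sterol enzyme, 86 and 35.5 CPM.

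**Figure D3:**
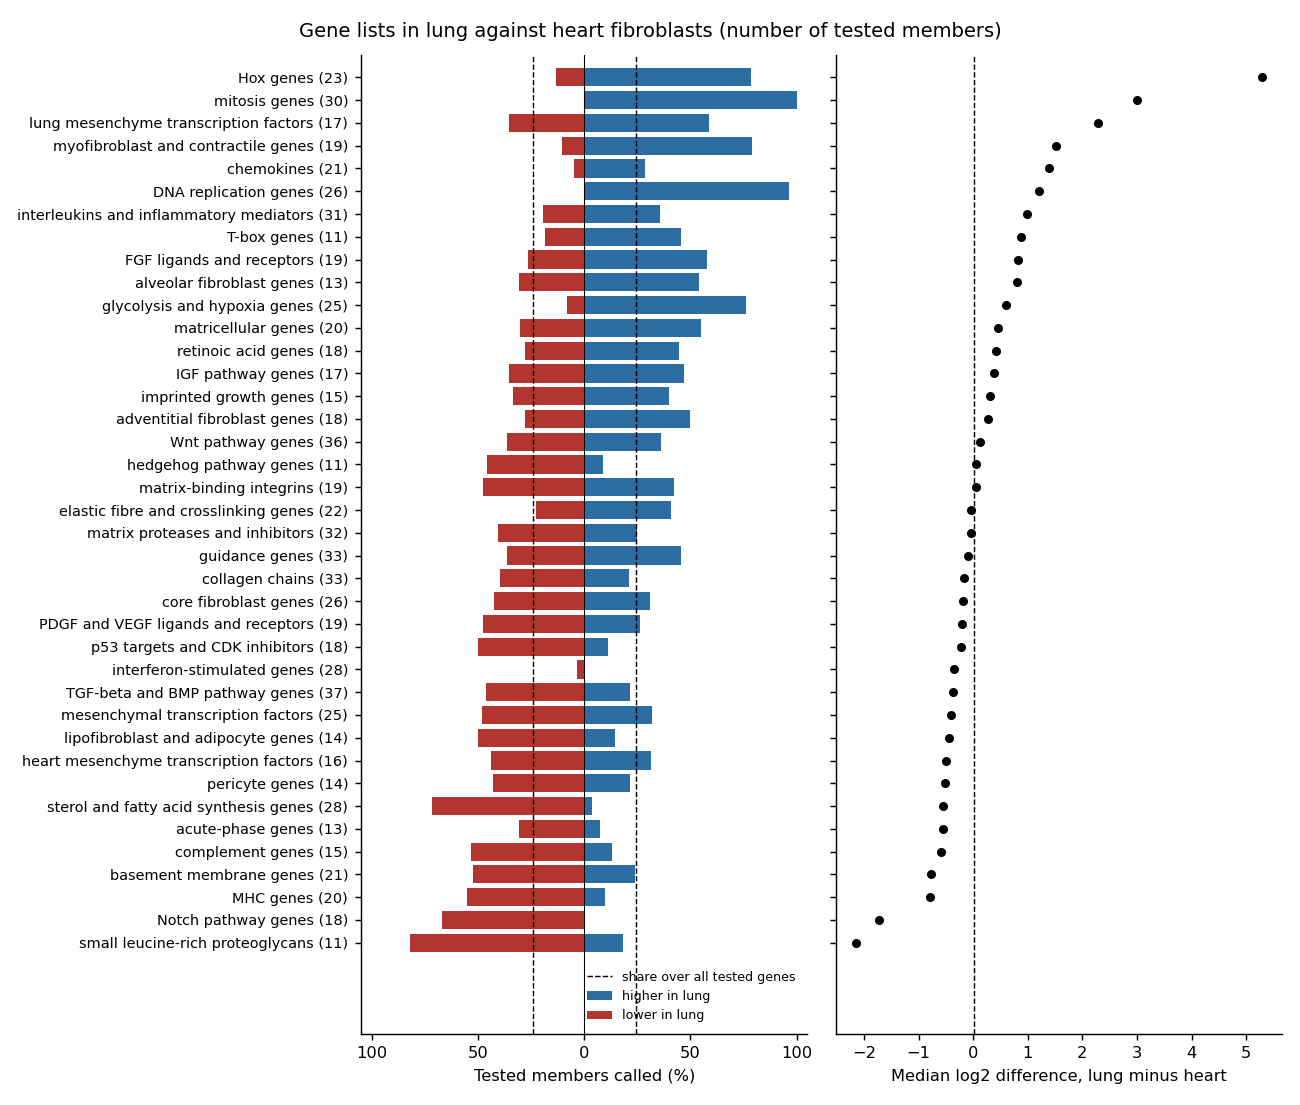
Gene lists in lung against heart fibroblasts, with the number of tested members in brackets: left, the percentage of tested members called higher (blue, to the right) or lower (red, to the left) in lung, with dashed lines at the shares over all tested genes (24.6% and 23.9%); right, the median log2 difference, with a dashed line at the median of all genes (0.01). Hox and mitosis genes lie at the top with medians of 5.29 and 2.99, Notch genes and small leucine-rich proteoglycans at the bottom with -1.73 and -2.14.

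The same organ difference was then measured in ECs and in iECs, which share no library with the fibroblasts. The iECs may, however, derive from such fibroblasts. Core fibroblast genes took 5.11% to 5.28% of the counts in heart ECs and 3.29% to 3.72% in lung ECs. They took 5.83% to 6.01% in heart iECs and 3.79% to 4.62% in lung iECs. The part of fibroblast transcripts in the EC and iEC values was not tested. Across the 14864 genes, Pearson's r between the log2 differences was 0.483 for fibroblasts and ECs and 0.574 for fibroblasts and iECs, as a description over genes, which are not independent replicates. The difference itself differed from that in ECs for 2715 genes (18.3%) that were more to the lung side in fibroblasts and 2415 (16.2%) that were more to the heart side. Against iECs these counts were 1871 and 1873 (12.6% each). Organ factors differed in the same direction in all 3 kinds of culture: Tbx20 by -8.63, -7.14 and -7.18 in fibroblasts, ECs and iECs, Hand2 by -3.84, -3.89 and -4.27, Tbx4 by 6.15, 5.34 and 4.23, and Hoxa5 by 6.94, 5.11 and 6.20. The median of the 23 Hox genes was 5.29, 3.72 and 4.34. Osr1 was not alike, at 2.28 in fibroblasts, -1.68 in ECs and 0.37 in iECs (difference from ECs 3.96 ± 0.319, adjusted p = 1.49e-07).

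The organ difference in cell division was larger in fibroblasts than in the other cultures. The median log2 difference of the 30 mitosis genes was 2.99 in fibroblasts, 0.20 in ECs and 1.09 in iECs. The difference was larger in fibroblasts than in ECs for all 30 genes by the test of the difference, and larger than in iECs for 29. The summed level of the 30 genes was lowest in heart fibroblasts (0.0068% to 0.00755%) and 0.0563% to 0.0607% in lung fibroblasts. It was 0.0491% to 0.0547% in heart ECs and 0.0626% to 0.0826% in lung ECs. In heart iECs it was 0.033% to 0.0349% and in lung iECs 0.0631% to 0.0828%. Mki67 differed by 4.03 in fibroblasts, 1.34 in ECs and 1.33 in iECs (difference of 2.69 ± 0.224 from ECs, adjusted p = 4.83e-08). Type I collagen differed in opposite directions, since Col1a1 was higher in lung by 0.77 in fibroblasts and differed by -1.60 in ECs and -0.50 in iECs (difference of 2.36 ± 0.161 from ECs, adjusted p = 3.46e-09). Of the 26 core fibroblast genes, 19 had a difference further to the lung side in fibroblasts than in ECs and 2 further to the heart side. The median log2 difference of the whole list was -0.18 in fibroblasts, -1.60 in ECs and -0.63 in iECs, so the EC value of Col1a1 was shared by the list. For Notch genes 10 of 18 were further to the heart side in fibroblasts than in ECs and 1 further to the lung side. Against iECs these counts were 6 and 2. The median of the Notch genes was -1.73 in fibroblasts, -0.02 in ECs and -1.81 in iECs, so it was not larger than in iECs. Fgf10 differed by 7.12 in fibroblasts and by 1.33 and 2.24 in ECs and iECs, with differences of 5.80 (adjusted p = 2.86e-07) and 4.89 (adjusted p = 3.53e-05). Sterol and fatty acid synthesis genes differed by a median of -0.56 in fibroblasts, -0.71 in ECs and 0.15 in iECs, and 20 of 28 were further to the heart side in fibroblasts than in iECs.

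**Figure D4:**
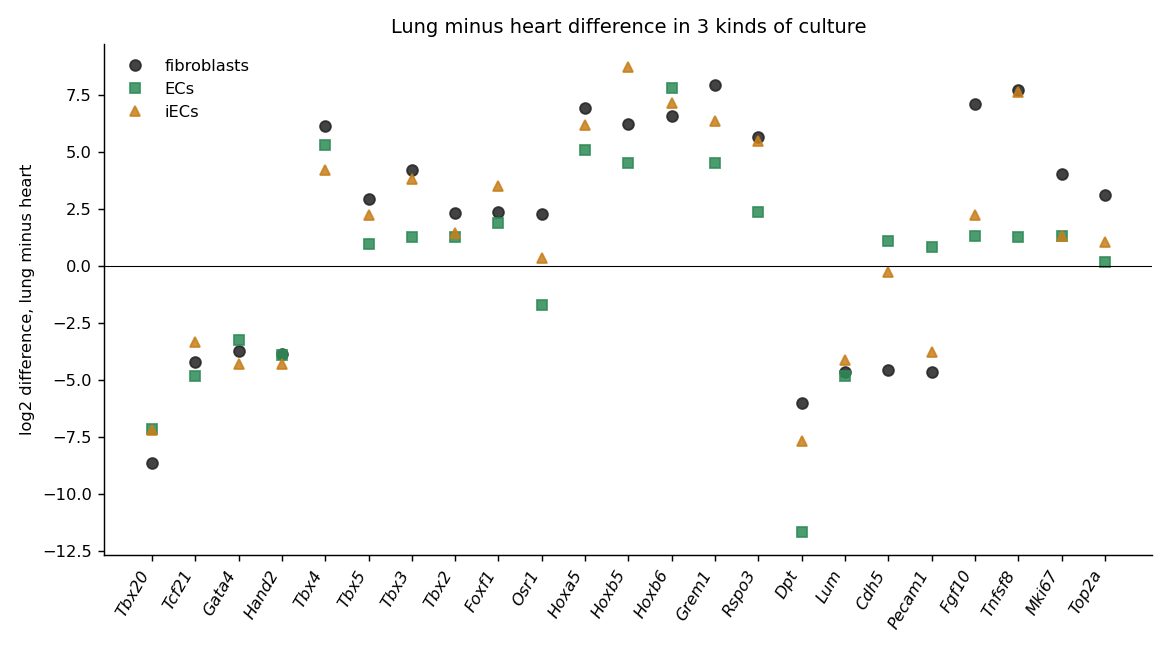
Log2 difference between lung and heart (lung minus heart) of 23 genes in fibroblasts (circles), ECs (squares) and iECs (triangles); fitted values of genes with few or no counts in a group are no bounds. Tbx20, Tcf21, Gata4 and Hand2 lie below 0 and Tbx4 and the Hox genes above 0 in all 3, while Osr1, Cdh5 and Pecam1 lie on opposite sides in fibroblasts and ECs.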

How the data were processed

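RNA was sequenced in 18 libraries, of which the 6 fibroblast libraries at day 7 are compared. The authors deposited estimated counts per gene in whole numbers, unscaled. The submitters' processing notes name Salmon, DESeq2 and mm10, and how transcripts were summed to genes and the strand setting are not given in the sources used here. Every column was matched to a sample by name. Symbols and positions came from GENCODE M21 (GRCm38), which lacked a symbol for 234 of 35727 gene IDs.

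The test was run with edgeR 4.0.16 (R 4.3.3): filterByExpr (14864 genes with 99.969% of the counts), TMM scaling and a robust quasi-likelihood fit of all 18 libraries with 1 coefficient per group (12 residual degrees of freedom), so that all groups set the spread. Calls used a Benjamini-Hochberg adjusted p under 0.05, and glmTreat tested against a log2 difference of 1. The SE is the absolute log2 difference divided by the square root of F. Differences between cultures were contrasts of the same fit. On data simulated for this contrast over 13971 genes, 28 of 67 genes were recovered at a log2 change of 0.5, 56 of 67 at 1 and 65 of 66 at 2, with 2 false calls. Only genes above a minimum level were changed, far fewer than were called in the data. All groups otherwise shared the same mean per gene, so these rates need not hold for the real comparison.

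Members and the 49 gene lists (1003 genes, 882 tested) were chosen with earlier results of these data known. Genes named are the 15 per direction with the largest called difference, at least 10 CPM and no overlap, without clone and pseudogene symbols; up to 6 called members per direction of each list at 5 CPM or more; the 6 per direction that differed most from ECs and iECs; and other list members given as values. A fold against a group without counts used the floor of 3 counts over the group. Replicate numbers were not used to pair the samples in the main fit, and the labels do not say whether they pair them. Alternatives were DESeq2 1.42.0, RLE scaling, other filters, a fit to the compared groups, a replicate block and each fibroblast library left out. A fit without lung EC replicate 3 and one of the compared groups with the block were added after the data were seen. Some genes are not reported here.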

Additional observations from a re-analysis of the deposited data

Results flagged for a closer look

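For some genes the organ difference in fibroblasts differed from that in other cultures, by edgeR's test of the difference between the differences. The values are log2 differences of differences, positive where fibroblasts lay further to the lung side.

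Against ECs, the 6 genes furthest to the lung side in fibroblasts were Calml4 (6.97), Sez6l (6.82), Tnfsf8 (6.46), Spock2 (6.15), Frmd5 (6.04) and Dio3 (5.92). Spock2, a matrix proteoglycan, averaged 3.1 CPM in heart and 38.8 CPM in lung fibroblasts and differed by -2.51 in ECs. The 6 furthest to the heart side were Arg1 (-6.50), Mmrn2 (-6.32), Adgrl4 (-5.69), Cdh5 (-5.66), Tie1 (-5.61) and Pecam1 (-5.49). All but Arg1, an enzyme of macrophages, are known from endothelium. Cdh5 differed by -4.56 in fibroblasts and 1.10 in ECs, and Pecam1 by -4.63 and 0.86. Arg1 averaged 0.369 CPM in heart and 12.4 CPM in lung fibroblasts.

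Against iECs, the genes furthest to the lung side were Calml4 (5.83), Map3k7cl (5.40), Fgf10 (4.89), Tmtc4 (4.34), Cxadr (4.22) and Limch1 (4.15). Those furthest to the heart side were Eef1a2 (-6.58), Emcn (-5.82), Hp (-5.75), Serpina3f (-5.11), Stab1 (-4.80) and C7 (-4.72). Hp, haptoglobin, lost its call in the fibroblast comparison itself without lung replicate 3 (adjusted p = 0.0557 with edgeR).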

How the results depend on the processing

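The counts of genes called in each direction, also past 2-fold and for the differences from ECs and iECs, stayed within 1.5 times their values under all alternatives run. Genes higher in lung numbered 3658 in the fit to all libraries, 3698 with DESeq2, 3584 with RLE scaling and 3241 with the fibroblast libraries alone, and 3197 to 3686 with 1 fibroblast library left out; those lower numbered 3546, 3694, 3615, 3084 and 3103 to 3477. With a replicate block they were 3531 and 3467. Deviations of same-numbered libraries correlated at -0.0371, -0.0357 and 0.00563. With 3 libraries centred per group, these values cannot decide whether same-numbered libraries shared an animal or preparation. RLE scaling shifted the median of all genes by -0.01. None of the 365 named genes changed direction, and 27 lost their call under at least 1 alternative, 24 of them with 1 library left out. Fits to the fibroblasts alone moved the calls of chemokines and interferon-stimulated genes, and DESeq2 those of chemokines (10 higher); without lung EC replicate 3 they stayed at 6 higher and 1 lower, and the cause was not tested. At this depth genes under the floor of 3 counts per group cannot be ranked.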

Other observations

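Imprinted growth genes, which are expressed from 1 parental allele and known for control of fetal growth, differed in both directions: of 15 tested, 6 were higher in lung fibroblasts and 5 lower. Peg3 was at 33.2, 24.6 and 28.4 CPM in heart and 40.3, 89.3 and 80.8 CPM in lung libraries, with no overlap and replicate 1 the lowest of the lung (log2 difference 1.29 ± 0.243, adjusted p = 0.000468). Zim1, which lies in the same imprinted domain, averaged 0.113 and 7.48 CPM, and Grb10, an adaptor that restrains insulin signalling, 165 and 382 CPM. Peg10, a gene of retrotransposon origin, was at 88.2, 66 and 80 CPM in heart and 6.24, 12.4 and 12.6 CPM in lung libraries (-2.89 ± 0.228, adjusted p = 3.23e-08). Mest averaged 14 and 1.45 CPM.

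Several genes known from neurons, glia or hormone systems differed. Cck, the gene of the peptide cholecystokinin, had 3 counts over the heart libraries and was at 46.6, 30.6 and 36.6 CPM in lung libraries, a ratio of 682 with a 95% counting interval of 233 to 3307. Dio3, which inactivates thyroid hormone, was at 0.47, 0.474 and 0.605 CPM in heart and 27.6, 23.4 and 30.5 CPM in lung libraries. Agt, angiotensinogen, was on the heart side, at 24.6, 21.4 and 26 CPM in heart and 0.515, 0.431 and 0.226 CPM in lung libraries. Cdh19, a cadherin of Schwann cells, averaged 20.2 and 0.181 CPM, while Sox10, the factor of that lineage, had 2 counts in heart and 1 in lung.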
